A study of Mus musculus with 12 samples.

Results

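The AP-1 and immediate early genes described here are 10 genes named by symbol: the FOS subunits Fos, Fosb, Fosl1 and Fosl2, the JUN subunits Jun, Junb and Jund, the zinc finger factors Egr1 and Egr3, and Ier3. Each of the 10 matched 1 Ensembl identifier among the 54232 listed, and all 10 passed the filter on low counts that left 18618 genes for testing. The wounds came from male Lepr (db/db) mice, which lack a working leptin receptor and become obese and diabetic, on the C57BLKS/J strain, with an age label of 12.5 weeks. Every mouse, controls included, carried this genotype and a full-thickness dorsal punch wound of 6 mm, and RNA was taken on day 10. TD wounds (5 libraries) were covered with Tegaderm, a clear film dressing, alone. Strain wounds (4 libraries) wore a patch that imposed about 30% strain, and No Strain wounds (3 libraries) wore a patch that imposed none. The labels do not say whether libraries share a mouse, so p-values measure the spread between these samples. If some do, the libraries are not independent and the p-values may be too small. Sample titles carry numbers 1 to 6 for TD and 7 to 15 for the patch groups. For TD against the patch groups, any order that this number stands for cannot be told apart from the dressing. Among the patch libraries, the No Strain numbers (11 to 13) fall between those of Strain. Titles also carry a letter, L or R. In TD only replicate 1 carries L, whereas most patch libraries carry L.

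All 10 are protein-coding genes on GRCm38. The genes the results turn on lie at chr12:85473890-85477273 on the plus strand (Fos), chr5:32135801-32157842 on the plus strand (Fosl2), chr8:84974484-84978718 on the minus strand (Junb), chr17:35821684-35822923 on the plus strand (Ier3) and chr4:95049034-95052222 on the minus strand (Jun).

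AP-1 is a dimer of leucine zipper proteins: a FOS protein pairs with a JUN protein, and the dimer binds a short DNA element near genes for proteases, cytokines and keratinocyte proteins. Fos, Fosb, Jun, Junb, Egr1, Egr3 and Ier3 are immediate early genes, which are transcribed within minutes of a growth factor, cytokine, stretch or injury signal, without new protein synthesis, and whose messenger RNAs decay fast. In healing skin such genes act in keratinocytes, fibroblasts and leukocytes. Their quick response to handling is a known concern when tissue is cut and frozen.

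Promoter windows are shown for 3 of the 4 members that passed a test between dressings (Fos, Junb and Ier3) and, beside them, for Jun, which passed none. The fourth, Fosl2, is not printed because all 250 bases of its window lie within an annotated exon. The windows are the 250 bases before the RefSeq start of each gene (GRCm38.p6), 5′ to 3′ on the gene's strand. Capitals mark the searched elements: TGACG (the core of a cyclic AMP response element), the longer form TGACNTCA, the TATA box as TATAAN, the CCAAT box, and the kappa-B element. Both strands were read.
Fos (chr12:85473640-85473889, plus strand): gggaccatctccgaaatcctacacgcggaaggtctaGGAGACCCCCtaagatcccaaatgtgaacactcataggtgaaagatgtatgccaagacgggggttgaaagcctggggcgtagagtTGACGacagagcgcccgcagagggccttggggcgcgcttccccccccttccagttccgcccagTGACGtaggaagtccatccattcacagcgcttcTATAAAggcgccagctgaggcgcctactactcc
Junb (chr8:84978749-84978998, minus strand): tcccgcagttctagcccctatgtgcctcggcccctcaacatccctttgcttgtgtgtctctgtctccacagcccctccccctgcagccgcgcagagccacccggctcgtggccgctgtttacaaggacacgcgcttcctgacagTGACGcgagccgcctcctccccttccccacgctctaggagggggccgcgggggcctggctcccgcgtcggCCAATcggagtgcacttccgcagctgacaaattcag
Ier3 (chr17:35821463-35821712, plus strand): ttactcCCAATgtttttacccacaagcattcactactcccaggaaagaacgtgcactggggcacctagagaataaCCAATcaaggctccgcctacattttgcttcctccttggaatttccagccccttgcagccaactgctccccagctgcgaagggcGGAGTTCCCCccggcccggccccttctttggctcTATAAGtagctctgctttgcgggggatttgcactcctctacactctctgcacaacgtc
Jun (chr4:95052223-95052472, minus strand): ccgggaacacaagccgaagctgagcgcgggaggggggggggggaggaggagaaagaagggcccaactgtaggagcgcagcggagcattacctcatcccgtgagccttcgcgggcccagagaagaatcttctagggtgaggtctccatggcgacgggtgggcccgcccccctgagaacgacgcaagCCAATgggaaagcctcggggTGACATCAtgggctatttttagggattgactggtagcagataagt

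The RefSeq promoter table held windows for 7 of the 10 members, and 32851 windows in all. Of the 7, only the Fos and Jun windows adjoin the start in the GENCODE annotation exactly. The Ier3 window holds 29 bases of annotated exon and the Fosb window 6. The Junb window begins at 84978749, a short gap from the gene start at 84978718. Fosl2 and Jund windows lie further off. The Fosl2 window (chr5:32136222-32136471) lies inside the gene, which starts at 32135801. The Jund window (chr8:70697489-70697738) ends well before the gene start at 70698949. Matches in the Fosl2 window are thus matches in exon sequence. A kappa-B element, the site class of NF-kB factors, was found in 4 of the 7 (Fos, Fosb, Fosl2 and Ier3) and in 7.25% of all windows. TGACG was found in 3 of the 7 (Fos at 129 and at 66 bases before the start, Fosb and Junb) and in 17.8% of all windows. The longer TGACNTCA was found only in Jun among the 7, as TGACATCA starting 45 bases before the start, and in 7.49% of all windows. TATAAN stood in Fos and Ier3 (22.7% of all windows) and CCAAT in Jun, Junb and Ier3 (33.8%). The classical AP-1 element TGANTCA (6.75% of all windows) and the CArG box of serum response factor (1.47%) were in none of the 7 windows. Sequence further than 250 bases from the start was not searched, nor were Fosl1, Egr1 and Egr3, which had no window. The genes may thus hold either element elsewhere. An EGR element, GCGNGGGCG, was in Fosb and Fosl2 and in 4.70% of all windows. TGACG and TGACNTCA can overlap in a shared TGAC, though no printed window holds such an overlap. These matches are letters in a window and were not tested as binding sites.

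Total counts per library ran from 20354677 to 25059371, so the floor of 3 counts lies at or below 0.147 CPM (counts scaled to a common library total). CPM values here were scaled with TMM factors, which adjust library totals for differences in RNA composition. Markers of skin and wound cells were all detected: Krt14 of basal keratinocytes ran from 2149 to 6731 CPM, Col1a1 of fibroblasts from 9663 to 19350 CPM, and S100a8 of neutrophils from 138 to 3634 CPM. The mix of tissue moved with the dressing. The summed level of 12 neutrophil markers was 499 to 1658 CPM in TD, 958 to 8696 CPM in Strain and 2292 to 5274 CPM in No Strain, and 11 of the 12 were higher in the patch groups together than in TD at an adjusted p under 0.05. For 18 skeletal muscle markers the sums were 8195 to 20180 CPM in TD, 4025 to 7453 CPM in Strain and 5812 to 12130 CPM in No Strain, with 11 of 17 tested lower. TD and Strain sums did not overlap. Fits below that use the muscle level as a covariate thus cannot separate it from the dressing, and lose precision. All 10 adipocyte markers were lower in the patch groups (1261 to 2924 CPM summed in TD, 893 to 1355 CPM in Strain and 681 to 971 CPM in No Strain). No marker in these 3 lists was at 0, and in bulk tissue fewer cells of a type and less RNA per cell cannot be told apart.

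Per kilobase of exon, the 10 genes spanned a wide range of levels over the 12 libraries. Junb was the most abundant, at 74.9 ± 20.1 RPKM, which is CPM per kilobase (SD, n = 12). Ier3 (44.8 ± 17.5 RPKM), Jun (42.9 ± 4.93 RPKM) and Jund (41.4 ± 3.30 RPKM) followed, and these neighbours did not differ beyond their spread. Fos stood at 29.4 ± 9.90 RPKM, Fosl2 at 22.4 ± 3.76 RPKM and Egr1 at 16.3 ± 5.17 RPKM, and the SD ranges of neighbours in this order overlapped. Egr3 had 10.6 ± 2.60 RPKM. The least abundant were Fosl1 (3.97 ± 1.40 RPKM) and Fosb (1.32 ± 1.01 RPKM), with library counts of 114 to 293 and 90 to 525. Their counting error, averaged over the libraries of a group, was about 7% to 9%. Exon lengths are unions over annotated transcripts, so genes with long alternative ends, such as Fosl2 and Fosb, read low on this scale. Exons of Jund share 877 bases, 52.6% of its exon length, with the antisense gene Gm11175, which held 0 counts in every library. The strand setting of the counting is not given in the sources used here, and the labels name a library kit that does not mark strand. Reads in the shared bases then cannot be assigned by strand, so the Jund level is uncertain. The same holds for Fosl1, which shares 57.2% of its exon length with Ccdc85b.

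**Figure D1:**
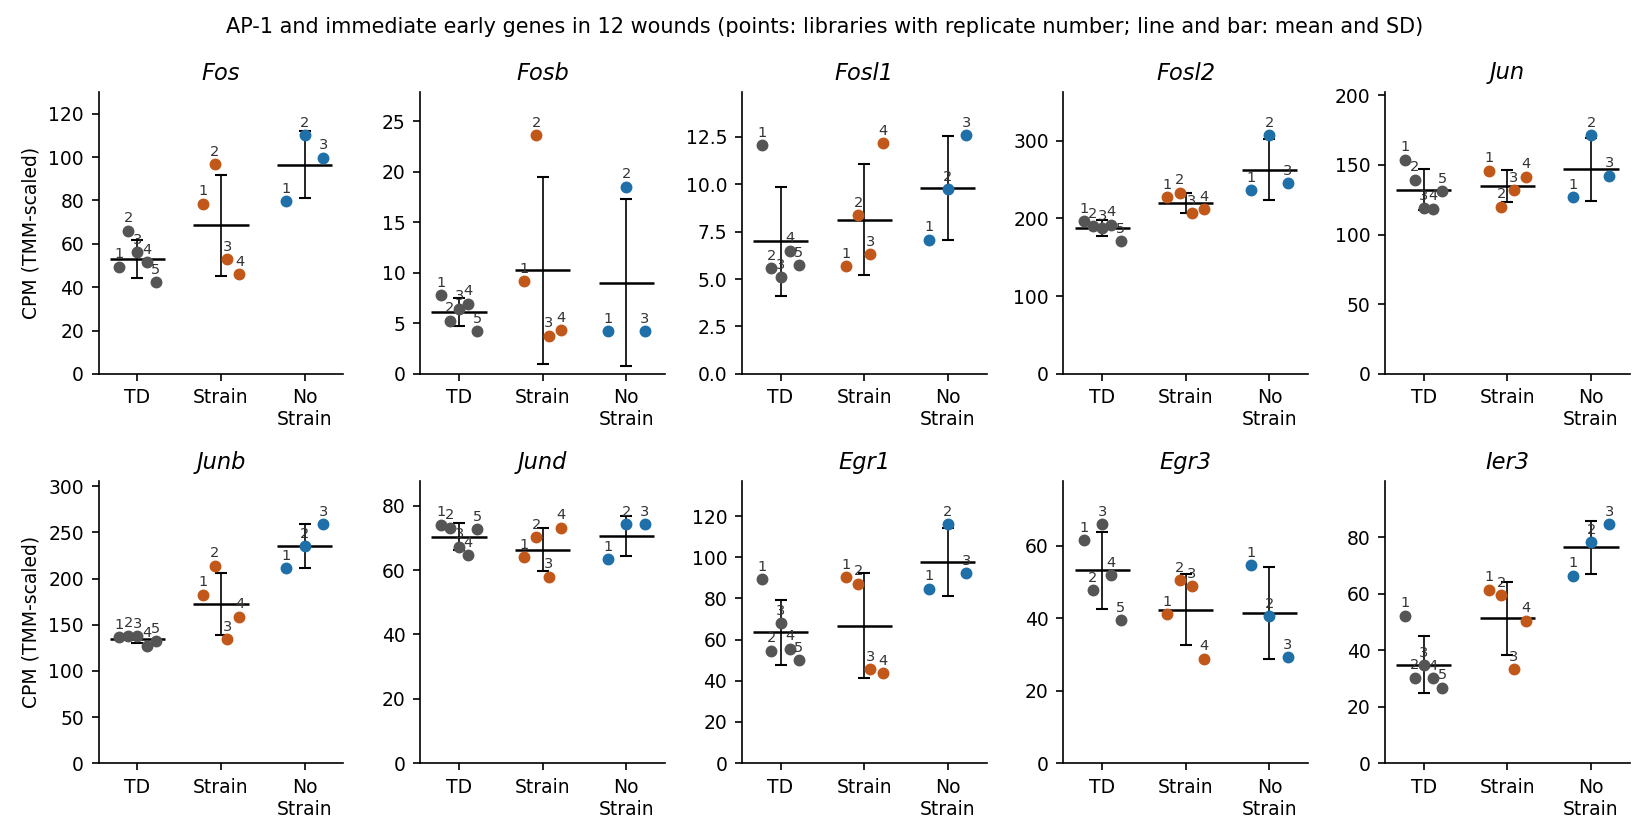
CPM (y axis, TMM-scaled, from 0) of the 10 members in TD, Strain and No Strain wounds. Points are libraries with their replicate number, and lines with bars are means and SD. Junb sits between 127 and 138 CPM in all 5 TD libraries and between 211 and 259 CPM in all 3 No Strain libraries.

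Fos, the founding FOS subunit and the standard read-out of recent stimulation, was highest under the patch without strain. TD libraries held 49.5, 66.1, 56.2, 51.6 and 42.3 CPM. Strain libraries held 78.5, 96.6, 52.9 and 45.9 CPM, and No Strain libraries 79.7, 110.2 and 99.7 CPM. All 3 No Strain libraries lay above all 5 TD libraries, whereas Strain replicates 1 and 2 lay with No Strain and replicates 3 and 4 within the TD range. Fos was 1.82-fold higher in No Strain than in TD (log2 fold change 0.86, standard error 0.22, edgeR quasi-likelihood adjusted p = 0.0244). Against Strain the same test gave a log2 difference from TD of 0.37 (adjusted p = 0.270), which did not pass. The No Strain call was lost without a filter on low counts (log2 0.87, adjusted p = 0.0561), with the L or R of the sample title as a covariate (log2 0.73, adjusted p = 0.0803) or with the skeletal muscle level as one (log2 0.80, adjusted p = 0.156), while the difference itself stayed of like size. It was also lost without No Strain replicate 2 or replicate 3.

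Fosl2, which encodes the long-lived FOS subunit FRA-2, varied little within groups. Its TD libraries held 196.6, 189.5, 187.7, 192.0 and 170.5 CPM. Under the strain patch they held 227, 233, 206.5 and 212 CPM, and without strain 236, 307 and 245 CPM. The 3 groups did not overlap: every Strain library was above every TD library, and every No Strain library above every Strain library. Fosl2 was 1.40-fold higher in No Strain than in TD (log2 0.49, standard error 0.089, edgeR adjusted p = 0.00573), and with the skeletal muscle covariate the log2 value was 0.43 (adjusted p = 0.0653). Strain against TD gave a log2 difference of 0.23 with an adjusted p of 0.0885, which passed at 0.05 only when the 2 groups were fitted alone or No Strain replicate 2 was left out.

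Fosb and Fosl1, the other FOS subunits, showed no difference that passed in any comparison. Fosb, an inducible subunit, held 7.82, 5.26, 6.46, 6.95 and 4.25 CPM in TD. It held 9.19, 23.6, 3.78 and 4.31 CPM in Strain, and 4.23, 18.5 and 4.23 CPM in No Strain. Strain replicate 2 and No Strain replicate 2 thus stood far above all the rest, at 525 and 432 counts against 90 to 190 counts elsewhere. The log2 difference from TD was 0.73 with an interval of -0.54 to 2.00 for Strain, and became -0.11 without Strain replicate 2. For No Strain it was 0.55 with an interval of -0.82 to 1.92, and became -0.54 without No Strain replicate 2.

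Fosl1, encoding the wound-edge subunit FRA-1, held 12.1, 5.59, 5.10, 6.50 and 5.74 CPM in TD. Strain libraries held 5.66, 8.37, 6.31 and 12.2 CPM and No Strain libraries 7.07, 9.74 and 12.6 CPM. TD replicate 1 and Strain replicate 4 came close to No Strain replicate 3, the highest, and all groups overlapped. Exons of Fosl1 share 1163 bases, 57.2% of its exon length, with Ccdc85b on the opposite strand, which held 409 to 606 counts. The strand setting of the counting is not given in the sources used here, and the labels name a library kit that does not mark strand. Reads in the shared bases then cannot be assigned by strand, so Fosl1 counts are uncertain.

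Junb, a JUN subunit that often restrains JUN activity and is induced by cytokines in leukocytes and epidermis, gave the clearest difference of the 10. TD libraries were tightly grouped at 136.5, 138.0, 137.9, 127.4 and 132.5 CPM. Strain libraries held 183, 214, 134.7 and 158.6 CPM and No Strain libraries 211, 235 and 259 CPM. No Strain and TD did not overlap, and 3 of the 4 Strain libraries exceeded every TD library. The No Strain level was 1.75-fold that of TD (log2 0.81, standard error 0.12, edgeR adjusted p = 0.00305), and Junb alone of the 10 kept this call with the skeletal muscle covariate (log2 0.75, adjusted p = 0.0349). For Strain the log2 difference from TD was 0.36 (adjusted p = 0.0588), and it passed in DESeq2 or without Strain replicate 3. In the annotation Junb shares 173 exon bases, 7.5% of its exon length, with Prdx2 on the other strand.

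Jun and Jund, the other JUN subunits, passed no test between dressings, and their differences were small. Jun, the stress-kinase target at the core of AP-1, held 153.6, 139.3, 118.9, 118.6 and 131.3 CPM in TD, 145.8, 120.1, 131.6 and 141.6 CPM in Strain, and 126.6, 171.4 and 142.2 CPM in No Strain. Its log2 difference from TD was 0.03 (interval -0.20 to 0.26) for Strain and 0.15 (interval -0.10 to 0.40) for No Strain. Jund, the constitutive subunit, ran from 64.7 to 74.2 CPM in TD, 58.0 to 73.2 CPM in Strain and 63.4 to 74.3 CPM in No Strain. The Jund intervals against TD were -0.26 to 0.09 for Strain and -0.19 to 0.19 for No Strain on the log2 scale. Both genes overlapped between all groups, and their libraries spanned 1.45-fold (Jun) and 1.28-fold (Jund) from lowest to highest.

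Egr1 and Egr3, zinc finger factors induced by the same signals as Fos, passed in no comparison. Egr1 held 89.2, 54.6, 68.0, 55.6 and 49.9 CPM in TD. Strain libraries held 90.3, 87.2, 45.7 and 43.7 CPM, and No Strain libraries 84.7, 116 and 92.2 CPM. Strain libraries again split, replicates 1 and 2 lying about 2-fold above replicates 3 and 4. TD replicate 1 was close to Strain replicate 1 and above No Strain replicate 1, so TD and No Strain overlapped. The No Strain difference from TD was 0.62 on the log2 scale (standard error 0.27, edgeR adjusted p = 0.130) and did not pass.

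Egr3 held 61.5, 47.9, 66.0, 51.9 and 39.4 CPM in TD, 41.1, 50.5, 48.8 and 28.9 CPM in Strain, and 54.7, 40.6 and 29.2 CPM in No Strain. Its values leaned lower under both patches, with log2 differences from TD of -0.33 (adjusted p = 0.332) for Strain and -0.36 (adjusted p = 0.313) for No Strain. Neither passed, and all groups overlapped.

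Ier3, an early response gene that NF-kB induces and that protects cells from death, had the largest difference that passed. TD libraries held 52.2, 30.3, 34.7, 30.1 and 26.7 CPM. Strain libraries held 61.4, 59.6, 33.3 and 50.5 CPM and No Strain libraries 66.3, 78.1 and 84.5 CPM. All No Strain libraries exceeded all libraries of both other groups, and TD replicates 1 and 3 lay within the Strain range. Ier3 was 2.19-fold higher in No Strain than in TD (log2 1.13, standard error 0.23, edgeR adjusted p = 0.00886). With the skeletal muscle covariate the log2 value was 1.12 and its adjusted p 0.0719. For Strain against TD the log2 difference was 0.56 (adjusted p = 0.108), and it passed without TD replicate 1 or without Strain replicate 3.

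**Figure D2:**
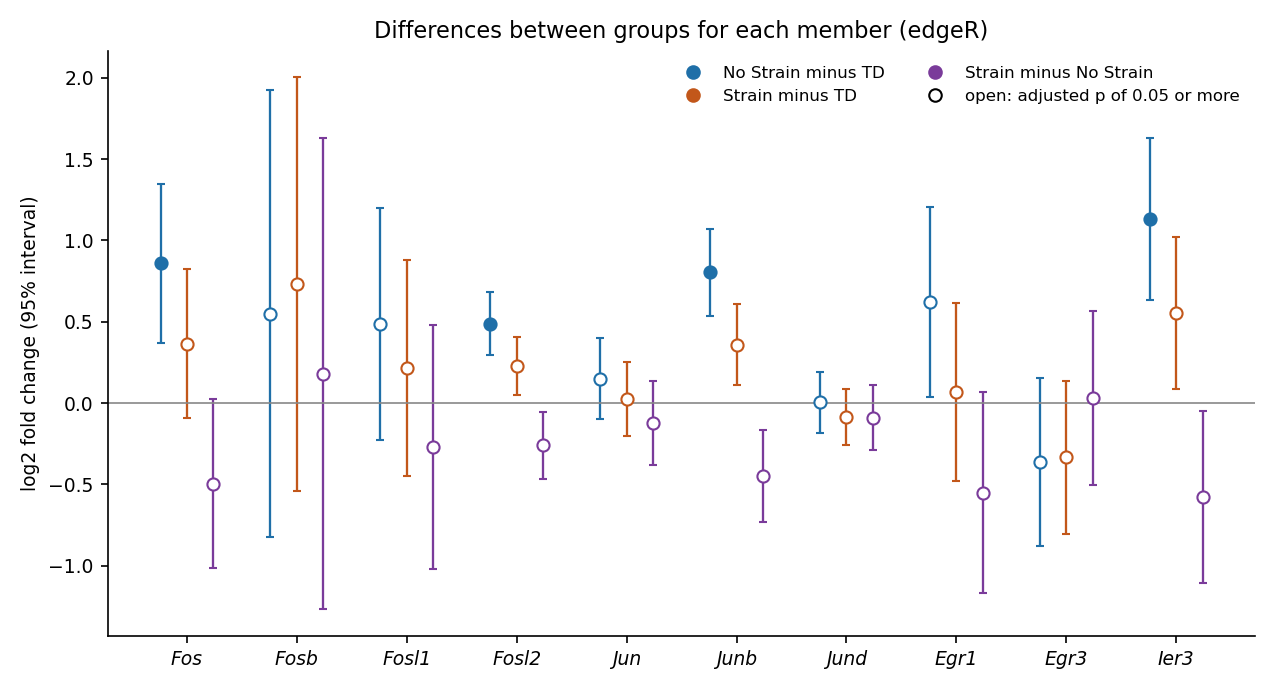
Log2 fold change (y axis) of each member for No Strain minus TD, Strain minus TD and Strain minus No Strain, with 95% intervals from the edgeR fit. Filled points had an adjusted p under 0.05 over all genes: Fos, Fosl2, Junb and Ier3, in No Strain minus TD only.

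The patch without strain against the film alone asks what wearing a patch does to these genes. Fos, Fosl2, Junb and Ier3 rose, none fell, and 6 did not pass. Over all 18618 genes, 17.8% passed in this comparison, 9.35% as higher and 8.40% as lower. Higher genes made up 52.7% of these calls, and 38.1% when libraries were scaled by their totals alone, under which the 4 members still passed. At an unadjusted p under 0.05 there were 5 members (these 4 and Egr1) and 33.5% of all genes. The median log2 difference was 0.52 over the 10 members and 0.00 over all genes tested, and the libraries of both groups did not overlap for 4 members, all higher, against 26.7% of all genes (14.3% higher, 12.5% lower). With the skeletal muscle level as a covariate 1 member (Junb) and 868 genes in all passed. Of 12 neutrophil markers, 9 were higher in No Strain than in TD, with a median log2 difference of 2.41 over the 12. In Strain against TD, where no member passed, 10 of the 12 were higher, with a median of 1.48. The part of neutrophil content in these results was not tested.

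The strain patch against the film alone gave no call among the members. None of the 10 members passed in the edgeR test, against 12.6% of all genes (6.20% higher, 6.41% lower), while 3 (Fosl2, Junb and Ier3) had an unadjusted p under 0.05, against 29.5% of all genes. Fosl2 alone had no overlap between the groups, higher under strain, as did 14.6% of all genes (7.47% higher, 7.15% lower). The median log2 difference was 0.22 over the members and 0.02 over all genes. DESeq2 called Junb and limma-voom called none. Both comparisons share the TD libraries. With both patch groups averaged and set against TD, Fos (log2 0.61), Fosl2 (0.36), Junb (0.58) and Ier3 (0.84) rose with edgeR adjusted p of 0.0342, 0.00596, 0.00291 and 0.00992, against 24.4% of all genes passing, 12.4% as higher and 12.1% as lower (50.5% of calls higher, 40.1% with library totals alone). At an unadjusted p under 0.05 these 4 members and 38.0% of all genes stood, and all patch libraries exceeded all TD libraries for Fosl2 alone, where 11.0% of all genes had no overlap (5.73% higher, 5.27% lower). With the skeletal muscle covariate none of the 4 passed, at log2 differences of 0.53 for Fos, 0.28 for Fosl2, 0.50 for Junb and 0.82 for Ier3. In that fit 97 genes in all passed, and the muscle level itself moved with the dressing. The Fos call was also lost without the filter on low counts (adjusted p = 0.0806), with the title letter (0.169) and in 7 of 12 fits that left out 1 library: TD replicate 1, 3, 4 or 5, Strain replicate 1, or No Strain replicate 2 or 3.

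Strain against no strain, both under a patch, compares wounds that differ in the imposed strain. None of the 10 members and 0 of 18618 genes passed in the edgeR test (0%). At an unadjusted p under 0.05 there were 3 members (Fosl2, Junb and Ier3, all lower under strain) and 5.61% of all genes, and neither DESeq2 nor limma-voom called a member. The log2 differences were -0.50 for Fos, -0.45 for Junb, -0.26 for Fosl2, -0.55 for Egr1 and -0.58 for Ier3, with adjusted p of 0.872 for each. Of the 10 members, 8 had lower values under strain, and the median log2 difference was -0.26 against 0.01 over all genes. For 2 members, Fosl2 and Ier3, all Strain libraries lay below all No Strain libraries, where 5.62% of all genes had no overlap (2.85% higher, 2.77% lower). The intervals reach from -1.01 to 0.02 for Fos and from -1.17 to 0.07 for Egr1, so a 2-fold lower level of either under strain lies within what these libraries allow.

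Spread between libraries of the same group differed widely among the members. The SD of log2 CPM within groups was 0.35 for Fos, 0.41 for Egr1, 0.36 for Egr3 and 0.35 for Ier3, and 0.93 for Fosb. It was 0.12 for Fosl2 and Jund, 0.17 for Jun and 0.18 for Junb, and 0.48 for Fosl1, whose counts are low. The median over all genes tested was 0.23. Fosb alone lay among the 10% of genes with the widest SD. Since low genes have a wider SD, the dispersion was also set against the fitted trend for genes of like abundance, and by that measure 5 members (Fos, Fosb, Egr1, Egr3 and Ier3) lay among the widest 10%. Fos and Egr1 stood at percentiles 93.0 and 95.8 of that measure, and Jund at 50.4. Counting error was far smaller: in the Strain group the coefficient of variation of Fos was 34.2%, where counting alone gives 2.66%, and that of Fosb 90.5%, where counting gives 8.10%.

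**Figure D3:**
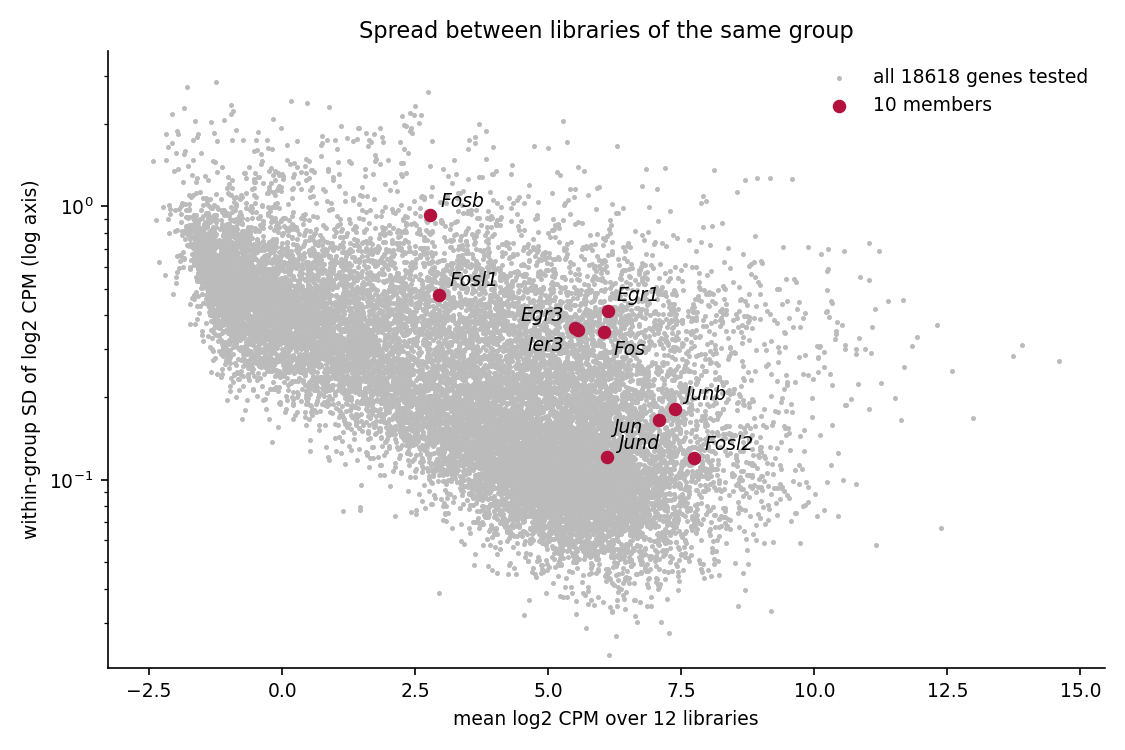
Within-group SD of log2 CPM (y axis, log scale) against mean log2 CPM (x axis) for all genes tested (grey) and the 10 members (red). Fosb is highest of the members, while Fosl2 and Jund lie lowest at 0.12.

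Some libraries were high or low for several members. In Strain, replicates 1 and 2 (title numbers 7 and 10) both exceeded replicates 3 and 4 (title numbers 14 and 15) for 6 members: Fos, Fosb, Fosl2, Junb, Egr1 and Ier3. Jun, Jund, Fosl1 and Egr3 did not follow, and no member had the opposite order. Of all genes tested, 20.3% had replicates 1 and 2 both above 3 and 4 and 17.6% had both below. Neutrophil marker sums in these libraries were 8696, 6053, 958 and 1600 CPM in replicate order. In TD, replicate 1 held the highest value of 7 members and replicate 5 the lowest of 6. TD replicate 1 also had the highest neutrophil sum of its group, 1658 CPM against 499 to 685 CPM in the others. No Strain replicate 2 was the highest of all 12 libraries for 5 members (Fos, Fosl2, Jun, Jund and Egr1) but had the lowest neutrophil sum of its group, 2292 CPM. The part of leukocyte content in these differences was not tested.

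**Figure D4:**
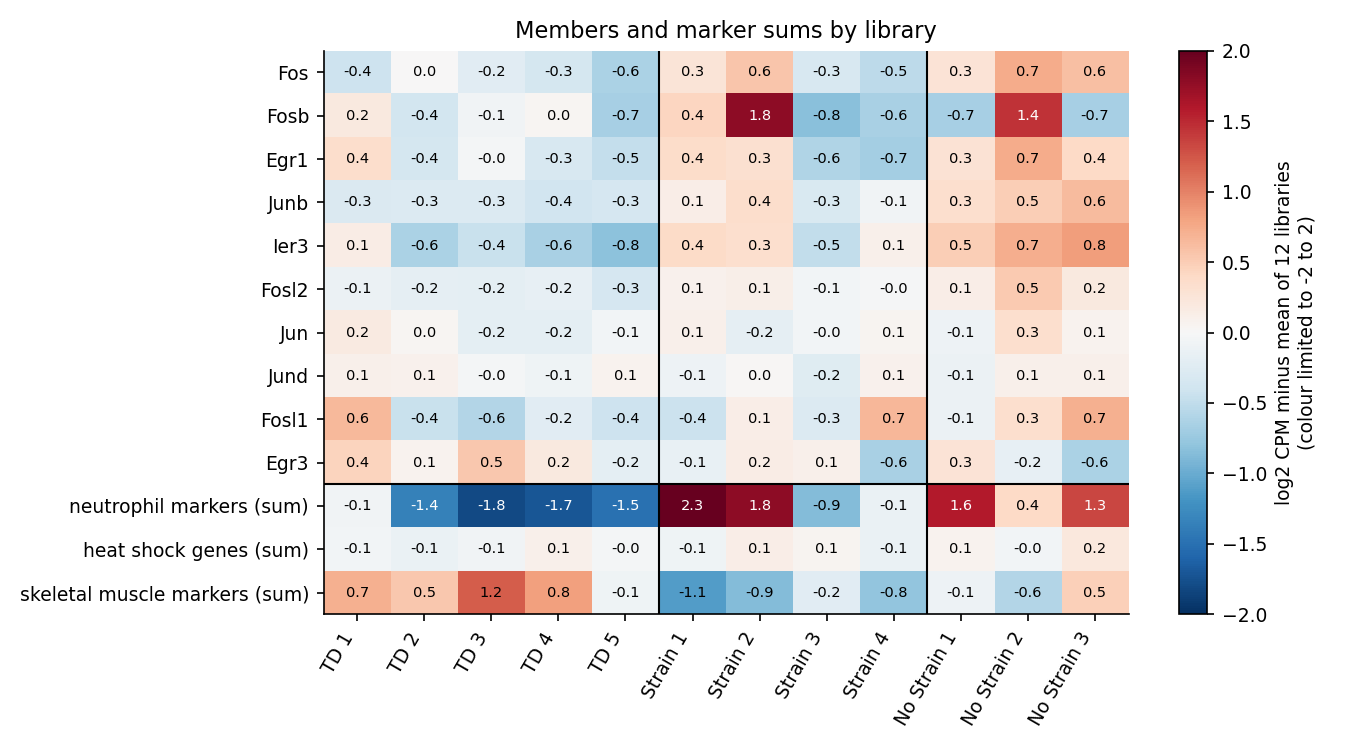
Log2 CPM of each member, and log2 of summed CPM of 3 gene lists, minus the mean over 12 libraries (colour and printed value), by library. Strain replicates 1 and 2 are above replicates 3 and 4 for Fos, Fosb, Egr1, Junb, Ier3 and Fosl2, and the neutrophil sum shows the same order.

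Heat shock genes respond to warming and stress during dissection. The summed level of 12 such genes was 2753 to 3253 CPM in TD, 2756 to 3309 CPM in Strain and 2918 to 3479 CPM in No Strain, and the groups overlapped. In the patch groups together, where 12.4% of all genes rose and 12.1% fell, 1 of the 12 rose, Hspe1 (a mitochondrial co-chaperonin, log2 0.24, edgeR adjusted p = 0.00667), and 1 fell, Hspa1a (inducible HSP70, log2 -0.53, adjusted p = 0.00442). Both calls were lost with the skeletal muscle covariate, at log2 0.31 for Hspe1 (adjusted p = 0.141) and -0.31 for Hspa1a (adjusted p = 0.367). No time from excision to freezing is given in the labels used here, and the part of handling in the spread of Fos, Fosb or Egr1 was not tested.

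Genes that followed Fos between libraries of the same group were ranked by the Pearson correlation of group-centred log2 CPM over the 12 libraries, as a description. Among the other members, Junb (r = 0.78, Spearman 0.80), Fosb (0.76, 0.69), Egr1 (0.71, 0.68) and Fosl2 (0.63, 0.64) went with Fos. Ier3 (0.43, 0.55), Egr3 (0.27, 0.24) and Jund (0.20, 0.17) had weaker correlations. Jun (0.02, 0.06) and Fosl1 (-0.19, -0.16) did not go with Fos. Of the 100 genes most like Fos, 0.537% of those tested, 2 were members (Junb and Fosb) and 3 were among 39 other immediate early genes (Dusp1, Plk3 and Zfp36). The 100 held 0 of the heat shock genes and 0 of the neutrophil markers, which are short lists. Outside the members the 6 most alike genes with at least 5 CPM were Opa1 (0.94), Etohd2 (0.93), Them4 (0.90), Dusp1 (0.89), Ntng2 (0.88) and Polr3b (0.88). Dusp1, a phosphatase that shuts off stress kinases and is itself an immediate early gene, ran from 79.5 to 117.5 CPM in TD, 87.5 to 197 CPM in Strain and 119.5 to 180 CPM in No Strain. With 12 libraries such ranks are loose: leaving out 1 library left 0 to 3 members among the 100.

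Of 39 other immediate early genes tested, 12 rose, 2 fell and 25 did not pass in the patch groups against TD, where 12.4% of all genes rose and 12.1% fell. This list and those that follow were chosen with earlier results of these data known. Their shares and medians thus describe these data and are not independent support. The median log2 difference was 0.33 over the list and 0.01 over all genes. Nfkbia, the NF-kB inhibitor, averaged 96.9 CPM in TD (SD 13.7, n = 5), 192 CPM in Strain (SD 65.8, n = 4) and 239 CPM in No Strain (SD 35.0, n = 3; log2 1.14, edgeR adjusted p = 0.00194). Socs3, a cytokine feedback inhibitor, Dusp2, a leukocyte phosphatase, and Ier5 rose by 1.17, 1.27 and 0.39 on the log2 scale. Egr2, the relative of Egr1 and Egr3, fell: TD wounds averaged 44.6 CPM (SD 5.48, n = 5), Strain wounds 29.9 CPM (SD 6.15, n = 4) and No Strain wounds 31.1 CPM (SD 3.60, n = 3), a log2 difference of -0.55 (edgeR adjusted p = 0.00927). Npas4, at 3.21 CPM in TD, fell by 1.02. Dusp2 alone of these 6 passed with the skeletal muscle covariate (log2 1.80). The others kept differences of like size: 1.203 for Nfkbia, 1.32 for Socs3, 0.38 for Ier5, -0.46 for Egr2 and -0.82 for Npas4, with adjusted p of 0.130 to 0.316. Egr2 also missed the threshold with the title letter (adjusted p = 0.0515).

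Of 17 tested partners of AP-1 in the leucine zipper family, 6 rose and 1 fell in the patch groups, against 12.4% and 12.1% of all genes, and 10 did not pass. Jdp2, a JUN-binding repressor, rose, with means of 26.6 CPM in TD (SD 2.58, n = 5), 37.5 CPM in Strain (SD 4.14, n = 4) and 43.3 CPM in No Strain (SD 5.75, n = 3; log2 0.60, edgeR adjusted p = 0.00165). Batf, a leukocyte partner of JUN proteins, rose by 1.07 from 4.12 CPM in TD, Crem by 0.43 and Atf4 by 0.30, while Atf7 fell by 0.17. None of these 5 passed with the skeletal muscle covariate, at log2 differences of 0.52 for Jdp2, 1.03 for Batf, 0.45 for Crem, 0.33 for Atf4 and -0.34 for Atf7. The Atf7 call was also lost without the filter on low counts (adjusted p = 0.0723), with the title letter (0.064) and without TD replicate 2, 4 or 5 or No Strain replicate 1 or 3.

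Upstream kinases and serum response factors included 23 tested genes, of which 4 rose and 0 fell, near or below the 12.4% and 12.1% of all genes. Map3k8, a kinase that feeds ERK signalling in myeloid cells, rose, with means of 17.5 CPM in TD (SD 1.64, n = 5), 26.9 CPM in Strain (SD 1.76, n = 4) and 30.1 CPM in No Strain (SD 4.45, n = 3), a log2 difference of 0.70 (edgeR adjusted p = 0.000804). Elk3, Rps6ka1 and Map2k1 rose by 0.42, 0.37 and 0.27. Of 14 feedback inhibitors of ERK and JNK, 0 rose and 2 fell, the latter near the share of all genes: the phosphatase gene Dusp8 by -0.66 and Spry1, a receptor kinase antagonist, by -0.29. With the skeletal muscle covariate none of these 6 genes passed. Map3k8 (log2 0.71) and Rps6ka1 (0.39) then kept their size, Elk3 stood at 0.32, and Map2k1 (0.15), Dusp8 (-0.37) and Spry1 (-0.15) were smaller by over 1.5 times. With the title letter Elk3 (adjusted p = 0.103), Map2k1 (0.125), Dusp8 (0.052) and Spry1 (0.059) did not pass, and Map2k1 was also lost without TD replicate 2, 3 or 4 or No Strain replicate 1 or 3.

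Of 26 tested AP-1 target genes of wounded skin, 14 rose and 0 fell in the patch groups, against 12.4% and 12.1% of all genes. This list too was chosen with earlier results of these data known, so the share is a description and not a test. The median log2 difference was 0.77 over the list and 0.01 over all genes. Mmp3 (stromelysin-1) averaged 279.6 CPM in TD (SD 36.5, n = 5), 615 CPM in Strain (SD 184.5, n = 4) and 1172 CPM in No Strain (SD 796, n = 3), a log2 difference of 1.60 (edgeR adjusted p = 0.00412). Mmp9, a gelatinase that neutrophils also carry, rose by 1.27. The neutrophil chemokines Cxcl2 and Cxcl1 rose by 2.83 and 2.48 from 15.3 and 6.57 CPM in TD. These 4 genes answer to NF-kB as well as AP-1, and none passed with the skeletal muscle covariate, where the log2 differences were 1.75 for Mmp3, 1.31 for Mmp9, 2.47 for Cxcl2 and 3.33 for Cxcl1 (adjusted p of 0.126 to 0.172). Between Strain and No Strain 0 of the 26 passed.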

How the data were processed

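Poly(A) RNA sequencing of 12 wounds was deposited as raw counts for each Ensembl gene. Per the submitters' processing notes the tools included bcl2fastq 2.17, cutadapt, STAR and featureCounts, with build GRCm38. Their settings, the strand setting included, are not given in the sources used here, and the labels name a library kit that does not mark strand. Symbols, exon lengths and overlaps came from GENCODE M21 (GRCm38).

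Genes were kept by filterByExpr of edgeR 4.0.16 (minimum count 10, minimum total 15), scaled by TMM and fitted in 1 quasi-likelihood model with robust spread over all 12 libraries (R 4.3.3). P-values were adjusted by Benjamini-Hochberg over all 18618 genes, with a threshold of 0.05. Log2 CPM used a prior count of 2. Libraries were grouped by their group label. No within-group pair of libraries agreed within sampling noise: over 19 pairs chi-square per degree of freedom was 8.69 to 67.1. The fit was also run on simulated counts, and the outcome is not reported here. Alternatives included DESeq2 1.42.0 and limma-voom (limma 3.58.1). The members and gene lists were chosen with earlier results of these data known. All members are named. Of each other list, up to 4 genes per direction with the smallest p past the threshold for both patches against TD are named. Genes like Fos are the 6 with the highest correlation among those with at least 5 CPM. In list counts Mmp1a, Egr4, Mapk10 and Tnnc2 were too low to test, and Ddit3 matched more than 1 identifier.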

Additional observations from a re-analysis of the deposited data

Results flagged for a closer look

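Across TD and Strain, 88 group values were screened, and 5 stood far from the other libraries relative to the group's range. Chance alone gives about 4.4 over both groups together. All 5 were in TD and none in Strain, and the ranks below are within TD only. Among the members this was Fosl1 in TD replicate 1, at a log2 CPM of 3.60 against 2.72 in the next library. The same library had the highest neutrophil marker sum in TD, 10.69 against 9.42 on the log2 CPM scale. Elk3 was lowest in TD replicate 3, at 5.94 against 6.32, as was the fibroblast marker sum, at 15.48 against 15.98. The endothelial marker sum in TD was highest in replicate 5, at 9.48 against 9.28. No Strain, with 3 libraries, was not screened.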

How the results depend on the processing

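No paired analysis was possible because the groups share no number in their labels. Among the member counts, the 0 between strain and no strain held under every alternative run. With strain set against TD, the count of 0 became 1 in DESeq2 (Junb) and 1 with only the groups compared (Fosl2), and ran from 0 to 2 across fits that each left out 1 library. For no strain against TD the 4 calls became 1 with the skeletal muscle covariate and ran from 3 to 4 without single libraries. For both patches the 4 became 0 with that covariate and ran from 3 to 4, Fos being the call lost in 7 of 12 such fits. Over all genes, DESeq2 called 33 for strain against no strain. Strain against TD gave 1527 without a filter, 798 with the title letter and 1 with the muscle covariate, no strain against TD 2145 and 868 with these covariates, and both patches 2589 and 97. Leaving out single libraries gave 882 to 2458, 1505 to 3415 and 3176 to 4570 in that order. The first fell by over 1.5 times without Strain replicate 2 (882) or TD replicate 2 (1426), 3 (1301) or 4 (1274), and the second without No Strain replicate 1 (1668) or 3 (1505). For these changes the cause was not tested.

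Members among the 10% of genes with the widest spread numbered 2 with a mean of at least 5 CPM and 5 by dispersion over the trend. Members among the 100 genes most like Fos numbered 1 with Spearman correlation and 0 to 3 across fits without single libraries.

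Direction turned only for members that did not pass. For strain against no strain, Fosb was -0.092 with limma-voom, -0.29 with the muscle covariate and -0.13 with the title number as covariate among patch libraries, an alternative chosen after seeing the data. For strain against TD, the title letter gave -0.051 for Fosb, -0.14 for Fosl1, -0.081 for Jun and -0.235 for Egr1, and the muscle covariate -0.67 for Fosb, -0.21 for Jun, -0.16 for Egr1 and 0.14 for Egr3. For no strain against TD, Fosb was -0.14 with the letter and -0.37 with muscle, and Jund was -0.06 by library totals, -0.003 with limma-voom, -0.01 with a mean of at least 5 CPM, -0.088 with the letter and -0.081 with muscle. For both patches, Fosb was -0.093 and -0.52 and Jun -0.015 and -0.093 with letter and muscle, and Egr3 0.022 with muscle. Across fits without single libraries, Fosb ran from -0.66 to 1.27, Jun from -0.23 to 0.00 and Egr3 from -0.17 to 0.27 between strain and no strain. With strain set against TD the ranges were -0.11 to 1.00 for Fosb, -0.045 to 0.50 for Fosl1, -0.021 to 0.085 for Jun and -0.11 to 0.23 for Egr1. For no strain against TD they were -0.54 to 0.89 for Fosb and -0.037 to 0.078 for Jund. Depth limits Fosb and Fosl1 most, at 90 to 525 counts.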
